A study of Mus musculus with 8 samples.

Results

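Peroxiredoxins are enzymes that reduce hydrogen peroxide and other peroxides with a reactive cysteine. Most of them are recharged by thioredoxin, which thioredoxin reductase keeps reduced with NADPH, and sulfiredoxin rescues peroxiredoxins whose cysteine has been over-oxidised. The family members work in different compartments: Prdx1 and Prdx2 mainly in the cytosol, Prdx3 in mitochondria, and Prdx4 in the endoplasmic reticulum, where it turns the peroxide made during disulfide formation into further disulfide bonds. The set described here joins Prdx1 to Prdx6 with the thioredoxin gene Txn1, the cytosolic thioredoxin reductase gene Txnrd1 and the sulfiredoxin gene Srxn1. Members were selected by gene symbol around Prdx4, which was itself chosen by its measured difference between deleted and control arrays. Of the 9 listed genes, 7 had a probe set with that symbol alone, out of 19938 genes so measured. The expression of Prdx5 and Prdx6 is not analysed here.

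The study used 8 Affymetrix arrays of mouse MLL-AF9 cells. This fusion protein, found in acute leukaemia, lets myeloid progenitors go on growing in culture. All cultures came from c-Kit-positive bone marrow of mice with floxed Runx1 and Cbfb alleles, carried MLL-AF9 and the tamoxifen-activated recombinase CreERT2, and grew in M3434 methylcellulose, a medium with cytokines. The control group (4 arrays) received ethanol and the group labelled Runx1/Cbfb-deleted (4 arrays) received 1 µM 4-hydroxytamoxifen (4OHT), both for 24 h. Each group holds 2 biological replicates of each of 2 clones, and a control and a 4OHT culture with the same clone and replicate number form a set, which gives 4 sets. No group had 4OHT without floxed alleles, so the effects of the drug, of active Cre and of the deletion cannot be told apart. Runx1 signal was higher in the arrays labelled deleted in 4 of 4 sets (log2 difference 0.52 ± 0.04, SE, limma adjusted p = 1.6e-05). Cbfb signal was lower in 4 of 4 (-0.18 ± 0.05, SE), but did not pass the threshold of 0.05 (limma adjusted p = 0.128). The Runx1 value goes against the label, and probes outside the deleted exons would not report the deletion. The cultures are therefore called labelled deleted, and every direction follows that label. Where arrays are called deleted anywhere in the text, the word is short for labelled deleted.

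Most markers of myeloid progenitors lay above the median level of all genes, 6.69 on the log2 scale. The 14 myeloid progenitor markers had mean log2 levels per array of 10.49 to 10.80 in controls and 10.38 to 10.75 in arrays labelled deleted. Over all arrays, Elane (13.32) and Mpo (13.04) were the highest of them and Csf1r (6.36), below that median, the lowest. The 6 measured T cell markers averaged 5.14 to 5.44 and the 8 measured mast cell and basophil markers 5.55 to 5.84. The 5 measured megakaryocyte markers averaged 5.62 to 5.97, and the 8 measured B and plasma cell markers 6.17 to 6.79. Of the 8 measured erythroid markers, 4 had a mean level under 6. Single genes of these lists were high, among them Xbp1 (B and plasma cell, 12.37), Tfrc (erythroid, 10.74) and Mcpt8 (mast cell and basophil, 8.39). In the comparison of the 4 sets, 6 of the 14 myeloid progenitor markers fell and 1 rose, where 0.953% of all genes passed (190 of 19938), while none passed among the erythroid, mast cell and basophil, megakaryocyte, B and plasma cell and T cell markers. The part of the myeloid marker changes in the values below was not tested, and in cultures as a whole, fewer cells of a type and less RNA per cell cannot be told apart.

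Because the experiment targets a DNA-binding factor and its partner, the start regions of the members were read from RefSeq (GRCm38.p6), in windows of 250 bases before to 50 after each annotated start. The table held windows for 8 of the 9 genes, and 3 windows for Txnrd1. They were searched on both strands for the RUNX motif TGTGGT, found in 16.76% of all 32851 windows, for the antioxidant response element TGACNNNGC (12.39%) through which the factor NRF2 acts, and for the core TGACGTGG of an unfolded protein response element (0.68%). The 250 bases before the start of Prdx4 are shown because it is the member with the largest difference of the 7, and those of Prdx3 because they hold 2 RUNX motifs. The Prdx4 window belongs to the one start in the table, which lies inside the RefSeq span of the gene given below, on the downstream side of the span's 5′ end; sequence at that outer end was not analysed here. Both read 5′ to 3′ along the gene, and capitals mark motif matches, here ACCACA, the RUNX motif on the other strand.
Prdx4, chrX:155338461-155338710, minus strand: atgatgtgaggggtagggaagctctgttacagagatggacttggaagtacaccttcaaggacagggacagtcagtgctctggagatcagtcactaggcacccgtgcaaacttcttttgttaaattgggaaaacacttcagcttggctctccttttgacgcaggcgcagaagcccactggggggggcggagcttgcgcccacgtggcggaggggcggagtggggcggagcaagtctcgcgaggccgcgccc
Prdx3, chr19:60874539-60874788, minus strand: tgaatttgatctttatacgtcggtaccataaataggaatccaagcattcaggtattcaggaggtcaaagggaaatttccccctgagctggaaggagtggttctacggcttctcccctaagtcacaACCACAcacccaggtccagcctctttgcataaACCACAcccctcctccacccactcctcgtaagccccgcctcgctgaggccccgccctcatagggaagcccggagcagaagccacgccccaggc

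The Prdx4 window held none of the 3 motifs. In Prdx3 the RUNX motifs began 125 and 93 bases before the start, and in Prdx2 the motif began at base 26 after the start. The antioxidant response element was found in Prdx1, Txnrd1 and Srxn1. It lay 133 bases before the start in Prdx1, 92 before it in 1 of the 3 Txnrd1 windows, at a start inside the gene span, and at base 29 after it in Srxn1. For the matches before the start, the motif with its flanks is shown, in capitals as it reads along the gene.
Prdx1, chr4:116685454-116685486, plus strand: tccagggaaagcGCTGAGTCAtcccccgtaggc
Txnrd1, chr10:82859102-82859134, plus strand: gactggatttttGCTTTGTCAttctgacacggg
A match here is a string of letters and not a measured binding site, and Txn1 and Prdx5 had no match to any of the 3.

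Prdx4 (Entrez 53381, chrX:155323918-155342272, probe set 10607475) was higher in the array labelled deleted in 4 of 4 sets, and its level also differed between the clones. In clone 1 its log2 level was 7.98 and 7.55 in the control arrays of replicates 1 and 2, and 8.69 and 8.44 in those labelled deleted. In clone 2 it was 6.72 and 7.04 in the control arrays, and 7.73 and 7.70 in those labelled deleted. Within each clone, both arrays labelled deleted lay above both controls, but across clones the groups overlapped, since a control array of clone 1 (7.98) lay above both clone 2 arrays labelled deleted. The differences within sets were 0.71 and 0.89 in clone 1 and 1.02 and 0.67 in clone 2, with a mean of 0.82 ± 0.16 (SD, n = 4 sets) and an SE of 0.08 in the limma fit, or 1.77-fold. This contrast is the one on which Prdx4 was chosen, so the difference is a description without a test. Leaving out 1 set at a time kept it between 0.76 and 0.87.

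**Figure D1:**
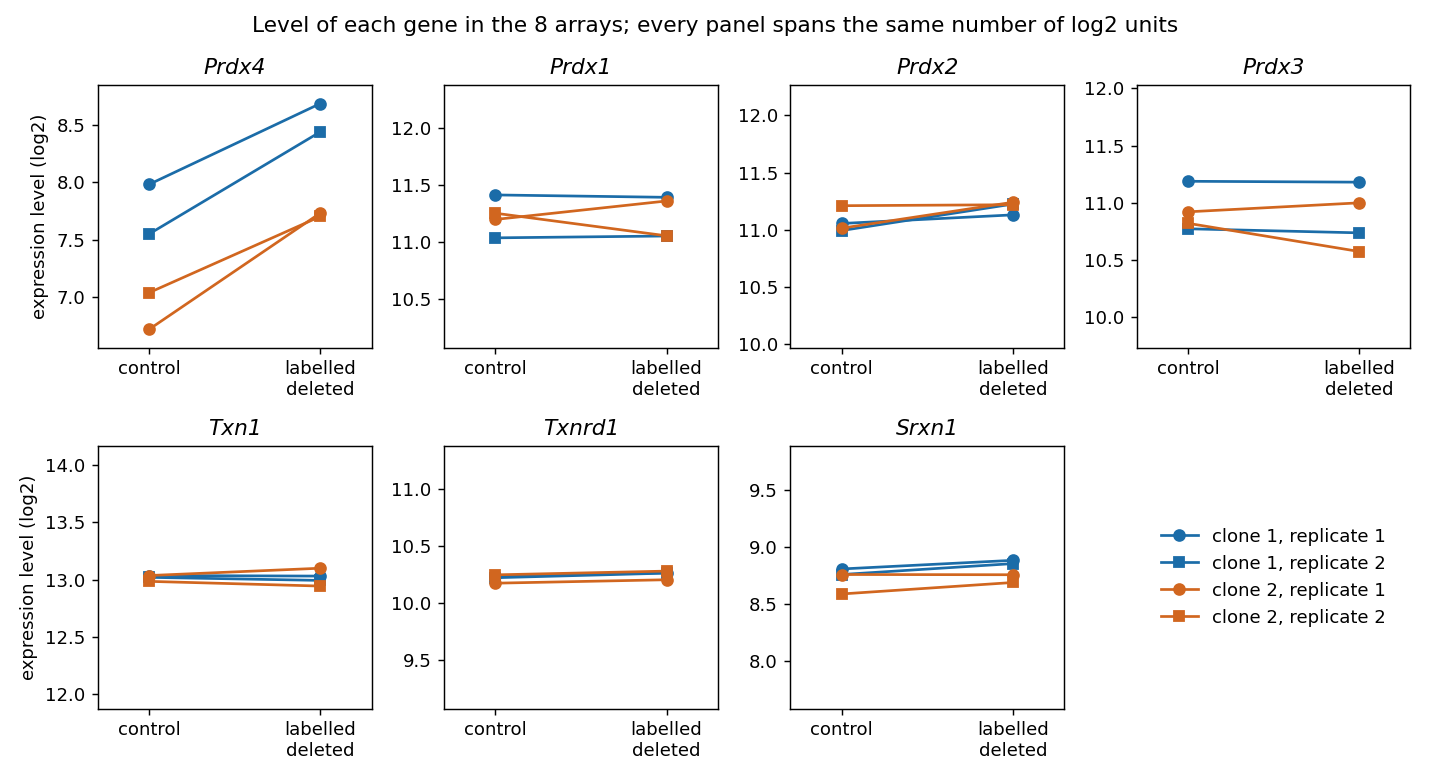
Log2 expression level of the 7 measured genes in control arrays and in arrays labelled deleted; each line joins the 2 arrays of a set, colours mark clones and marker shapes replicate numbers, and all panels span the same number of log2 units. All 4 Prdx4 lines go up, those of clone 1 lie above those of clone 2 in each treatment, and the 2 lines of clone 2 cross, while the lines of the other 6 genes stay close to flat.

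The clone comparison sets control arrays of the clones against each other, a contrast that was not used to choose Prdx4. Its spread was estimated from the arrays of both treatments. The control levels also enter the set differences on which Prdx4 was chosen, so the comparison is not fully separate from that choice. Among control arrays, Prdx4 was 1.85-fold lower in clone 2 than in clone 1 (means of 6.88 and 7.77; log2 difference -0.89 ± 0.17, SE, n = 2 arrays per clone; limma adjusted p = 0.0131). It was the 1 member of 7 that passed, and 3.97% of all genes tested passed. In the same comparison 2 of the 14 myeloid progenitor markers were higher and 2 lower in clone 2, and 3 of 7 genes of the MLL fusion program were higher. Of the markers of other cells, 1 of 8 mast cell and basophil genes was lower, and 1 of 5 megakaryocyte and 1 of 8 B and plasma cell genes were higher, with none of the erythroid or T cell genes. The part of these in the Prdx4 difference was not tested. The call rests on few arrays: the difference was -0.67 (limma adjusted p = 0.161) without replicate 1 of clone 1 and -0.73 (0.133) without replicate 1 of clone 2, and it also missed the threshold when all 35556 probe sets were tested (0.0916). In the arrays labelled deleted, a comparison added after these values were seen, clone 2 was again lower (means of 7.72 and 8.57; -0.85 ± 0.17, SE; limma adjusted p = 0.0145), where 5.25% of all genes passed. Control and 4OHT cultures of a set share a clone, so the deleted arrays are not further clones.

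The 4 conditions ran, from low to high, from clone 2 control through clone 2 labelled deleted and clone 1 control to clone 1 labelled deleted. The neighbours in the middle, with means of 7.72 and 7.77, lay closer than the 2 control arrays of clone 1 did to each other. The change itself was 0.80 ± 0.12 (SE) in clone 1 and 0.84 ± 0.12 in clone 2. These are the set differences on which Prdx4 was chosen, so the 0.04 between them is a description with no test. It was -0.13 without the set of clone 2, replicate 1, and 0.22 without that of clone 2, replicate 2, so its direction rests on single sets. Of the other 6 members, none had a difference between the clones' changes that passed (limma), against 0.0100% of all genes (2 of 19938; 393 at an unadjusted p under 0.05).

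**Figure D2:**
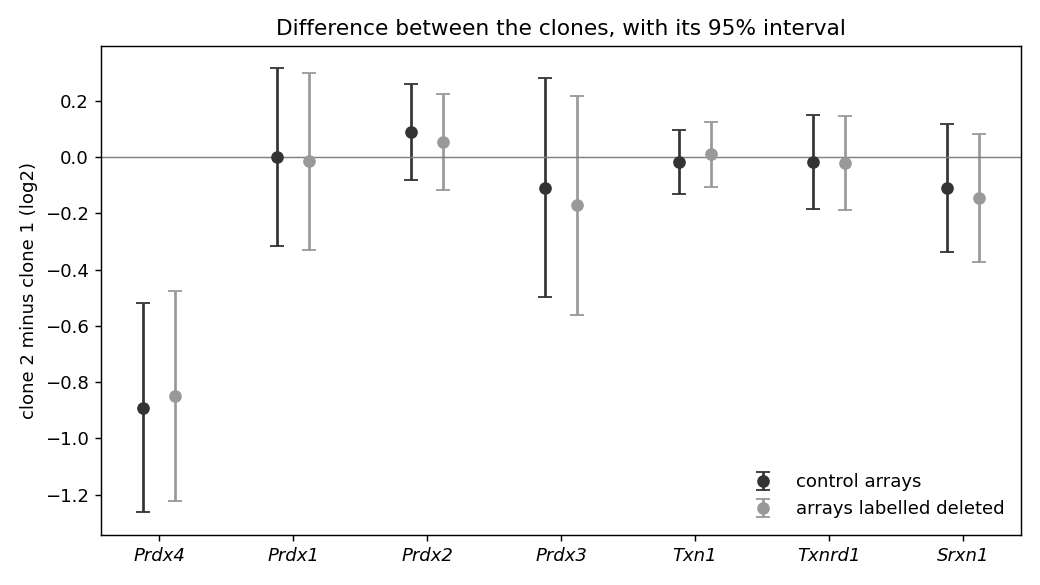
Log2 difference between clone 2 and clone 1 for the 7 genes, in control arrays (dark) and in arrays labelled deleted (grey); points are fitted differences and bars their 95% intervals. Prdx4 sits near -0.89 and -0.85, and the intervals of the other 6 genes all include 0.

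The other measured peroxiredoxins did not pass the test of labelled deleted against control. Of the 6 members other than Prdx4, none passed (limma, Benjamini-Hochberg over all genes), and 0.953% of all genes did. At an unadjusted p under 0.05 there was 1 of the 6, Prdx2, and 1289 of all genes.

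Prdx2, a cytosolic peroxiredoxin best known from red blood cells, stood closest to the threshold. In control arrays its log2 level was 11.06 and 10.99 in clone 1 and 11.01 and 11.21 in clone 2. In the arrays labelled deleted it was 11.13 and 11.22 in clone 1 and 11.24 and 11.22 in clone 2. The groups overlapped through 1 control array, replicate 2 of clone 2, whose level was like that of the deleted arrays. The difference was above 0 in 4 of 4 sets (0.14 ± 0.04, SE; 95% interval 0.05 to 0.22; limma adjusted p = 0.235). Leaving out clone 2, replicate 2 gave 0.18, which passed (limma adjusted p = 0.0101), and with array weights it also passed (0.0112). In these fits 418 and 388 of all genes passed, against 190 in the main fit. Leaving out any other set gave 0.10 to 0.16, which did not pass. A second Prdx2 probe set, 10573483, gave only 0.03 ± 0.05 (SE), against 0.14 ± 0.05 for the brighter 10356999 in the same fit over all probe sets, and with both averaged the difference was 0.08 (adjusted p = 0.887). Whether either probe set also detects a processed copy of the gene was not tested, so the Prdx2 levels and their place near the threshold belong to probe set 10356999 and may not be those of the gene alone. The same holds for Prdx1, whose 2 probe sets also differ.

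Prdx1, the other cytosolic member, and the mitochondrial Prdx3 had overlapping groups. Prdx1 levels in clone 1 were 11.41 in the control and 11.39 in the deleted array of replicate 1, and 11.04 and 11.05 in those of replicate 2. In clone 2 they were 11.20 and 11.36 in replicate 1, and 11.25 and 11.06 in replicate 2. The mean difference was -0.01 ± 0.05 (SE; 95% interval -0.11 to 0.09; limma adjusted p = 1), with 2 sets above 0 and 2 below. A second Prdx1 probe set, 10507328, was at 0.10 ± 0.05 (SE) where the one used, 10436048, was at -0.01 ± 0.06, so the 2 probe sets differ in sign, each within about 0.10 of 0.

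Prdx3 levels in clone 1 were 11.19 in the control and 11.18 in the deleted array of replicate 1, and 10.77 and 10.74 in those of replicate 2. In clone 2 they were 10.92 and 10.999 in replicate 1, and 10.82 and 10.57 in replicate 2. The mean difference was -0.05 ± 0.05 (SE; 95% interval -0.15 to 0.05; limma adjusted p = 1). Prdx1 and Prdx3 followed each other over the 8 arrays (Pearson r = 0.91), which share clones, replicate numbers and a joint normalization, and Prdx4 had r = 0.18 with Prdx1 and 0.29 with Prdx3.

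The genes that recharge peroxiredoxins had narrow ranges. Txn1, which encodes cytosolic thioredoxin, lay between 12.94 and 13.10 in all 8 arrays, with a difference of 0.00 ± 0.02 (SE; 95% interval -0.05 to 0.04; limma adjusted p = 1). Txnrd1, its reductase, lay between 10.17 and 10.28. Its set differences were 0.03, 0.04, 0.03 and 0.03, above 0 in 4 of 4 sets, and their mean of 0.03 had a limma SE of 0.04 (95% interval -0.05 to 0.12; adjusted p = 1). Srxn1, which encodes sulfiredoxin, lay between 8.59 and 8.88, with a difference of 0.07 ± 0.06 (SE; 95% interval -0.05 to 0.19; limma adjusted p = 1). Its set differences were 0.08 and 0.10 in clone 1, and 0.00 and 0.10 in clone 2. Across the 3 genes, the limits of the intervals run from -0.05 to 0.19 on the log2 scale.

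**Figure D3:**
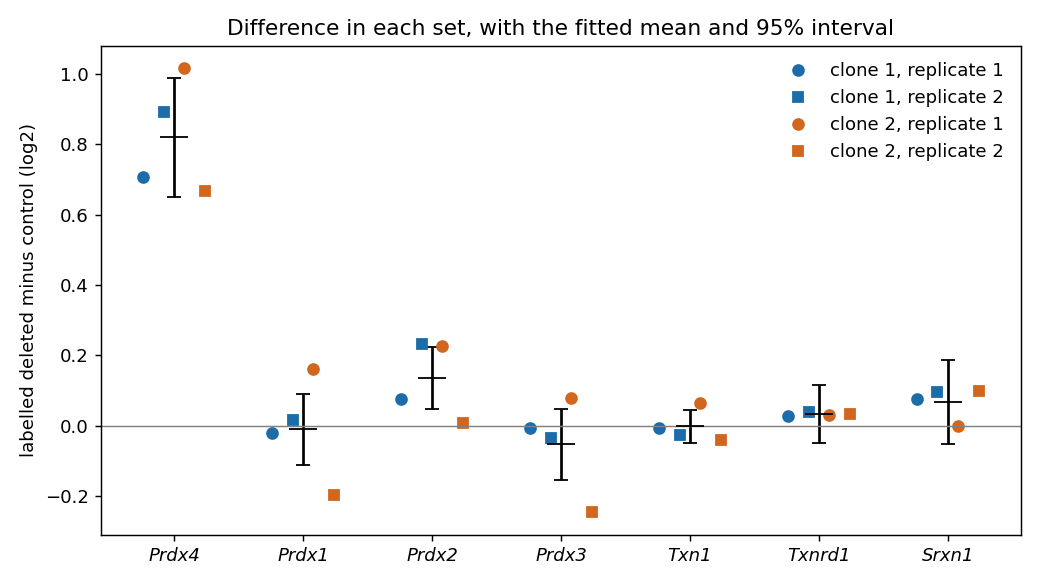
Log2 difference, labelled deleted minus control, of the 7 genes; symbols are the 4 sets and the black bar is the fitted mean with its 95% interval. Prdx4 lies at 0.67 to 1.02 in the 4 sets, and the other genes lie between -0.25 and 0.23 in every set.

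The wider redox pathways were compared through 5 gene lists. Of all genes 0.953% passed (190 of 19938), so at that share lists of this size would hold few or none. Of 27 genes of oxidative folding in the endoplasmic reticulum, the compartment of Prdx4, none passed, and their median difference was -0.04 against 0.00 for all genes. Sdf2l1, a component of the chaperone complexes there, had the smallest p (-0.09 ± 0.02, SE; limma adjusted p = 0.139). It passed without the set of clone 2, replicate 2 (0.0411), where 418 of all genes passed, but not when any other set was left out. With array weights, where 388 of all genes passed, Sdf2l1 passed as well (limma adjusted p = 0.0275), but in none of the other alternatives run. In this list 22 of 27 genes were below 0, but 12 of 27 without the set of clone 2, replicate 2, where the median was 0.00. None of 17 thioredoxin, glutaredoxin and methionine sulfoxide reductase genes passed (median 0.01). With arrays centred on their median, the median of the list was -0.01, where that of all genes was -0.02. In that list Msra, which repairs oxidised methionine, came closest, at -0.25 ± 0.05 (SE; below 0 in 4 of 4 sets; limma adjusted p = 0.0515). Msra passed without the set of clone 2, replicate 2 (-0.27, limma adjusted p = 0.0071), but not when any other set was left out. It also passed with array weights (0.0098), quantile normalization (0.0489), only genes of mean level at least 6 (0.0442) and only sets of replicate number 1 (0.0160). In none of the other alternatives run did Msra pass.

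Among 23 glutathione genes 1 passed the test, downwards, where 0.953% of all genes passed, and the median of the list was -0.02. The gene that fell was Mgst2, which encodes a microsomal glutathione transferase. Control arrays averaged 9.57 ± 0.31 (SD, n = 4) and those labelled deleted 9.12 ± 0.51 on the log2 scale, 1.36-fold lower (-0.45 ± 0.09, SE; limma adjusted p = 0.0353). Its set differences were -0.20 and -0.16 for replicate 1 of the clones and -0.63 and -0.80 for replicate 2, so the mean was -0.18 over the former and -0.72 over the latter. The call ended when clone 1, replicate 2 was left out (-0.39, limma adjusted p = 0.193), without the variance trend (0.342), with all probe sets tested (0.559) and without the set as a block (1).

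None of 24 measured NRF2 regulators and targets passed, where 0.953% of all genes did, with 11 above 0 and a median of -0.01. The one with the smallest p was Gclm, the modifier subunit of the enzyme that starts glutathione synthesis (0.13 ± 0.03, SE; above 0 in 4 of 4 sets; limma adjusted p = 0.0592). Gclm passed when clone 2, replicate 2 was left out (0.0049), but not when any other set was. It also passed with array weights (limma adjusted p = 0.0038) and quantile normalization (0.0282), but in none of the other alternatives run. None of the 5 superoxide dismutase and catalase genes passed, and Sod3, the extracellular dismutase gene, had the smallest p (-0.08 ± 0.09, SE; adjusted p = 1). Gclm belongs to 2 of the lists.

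**Figure D4:**
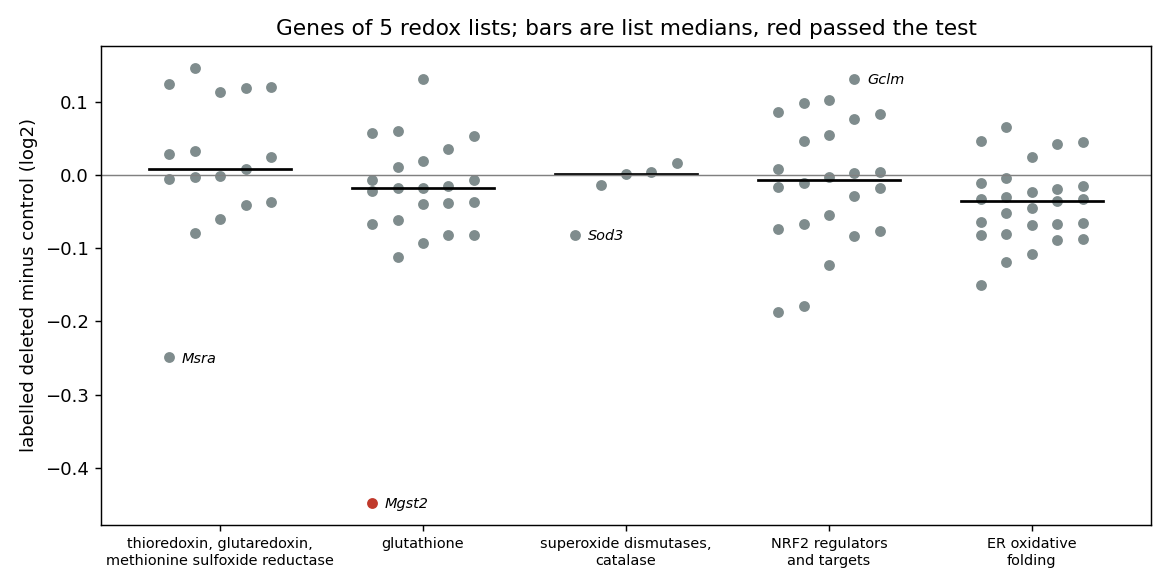
Log2 difference, labelled deleted minus control, of every measured gene in 5 redox lists; each point is a gene, bars are list medians, and red marks a gene past the threshold. Mgst2, at -0.45, is the only red point, and the highest gene of the 5 lists is at 0.15.

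Genes outside the set whose levels most resembled the Prdx4 profile were sought over the 8 arrays among 2921 named genes with an SD of at least 0.2. The closest was Cryl1, an enzyme gene of sugar metabolism (Pearson r = 0.99), with means of 8.48 and 8.99 in control and deleted arrays of clone 1 and 7.68 and 8.28 in those of clone 2. It was followed by the mitochondrial adenylate kinase gene Ak3 and the TNF family ligand gene Tnfsf14 (both r = 0.96), then Sh3bp5 (0.96) and Card6 (0.95). All 5 were higher in clone 1 and higher in the arrays labelled deleted, by 0.30 to 0.55 on the log2 scale. Those directions follow from choosing the genes by their likeness to Prdx4. The arrays share 2 clones and 2 treatments, so these correlations describe 8 dependent points. Within the set, where the SD limit was not applied, Srxn1 (r = 0.74) and Txnrd1 (0.64) resembled Prdx4 most. Both varied little over the 8 arrays, from 8.59 to 8.88 and from 10.17 to 10.28.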

How the data were processed

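The deposited table gives log2 expression levels of 35556 probe sets, made by the authors with RMA per the submitters' processing notes; the sources used here do not give its version, chip definition or genome build. RMA gives log2 values, and the range of 2.61 to 13.77 does not contradict that scale. RMA normalizes between arrays, so a level is relative to the other genes of an array, and the 8 arrays limit the precision. Probe sets were named from the platform annotation, 21789 with 1 symbol and 1621 with several, which were left unnamed; each gene took its brightest probe set (19938 genes), and probe sequences were not analysed here, so for Prdx1 and Prdx2, with 2 probe sets each, the brightest may detect a processed copy.

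Differences were fitted with limma 3.58.1 (R 4.3.3), with trended empirical Bayes moderation, two-sided tests, Benjamini-Hochberg adjustment over all genes and a threshold of 0.05. Deleted minus control had the set as a block; clones were compared in a fit of the 4 clone and treatment groups. An SE is the moderated one, which borrows spread from other genes, and p-values measure spread between these cultures of 2 clones. Replicate numbers were taken to pair the cultures, since the series' design text speaks of 4 sets. Deviations from the mean of each treatment correlated within every set (r = 0.72 to 0.82). These deviations keep the clone difference, so the size of r cannot by itself show that replicate numbers pair cultures. In every set the own partner was the best match. Scripts were tested on simulated data with noise independent between arrays and no set effects, so that test did not cover dependence within sets. Members, lists and motifs were chosen with earlier results of these data known. Text names the members, Runx1, Cbfb, list genes past the threshold or else the smallest p of a list, and the 5 genes most like Prdx4. Alternatives covered pairing, variance model, array weights, probe sets, normalization, low levels and left-out arrays.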

Additional observations from a re-analysis of the deposited data

How the results depend on the processing

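The Prdx4 difference between labelled deleted and control stayed between 0.76 and 0.87 under all alternatives run, and its clone difference between -0.67 and -1.11, always with clone 2 lower. Over all 7 members and the 3 comparisons, 33 of 305 recomputed differences changed sign (for Prdx4 2, both in the difference between the clones' changes), none of them past the threshold in either fit and none above 0.19 in size.

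Counts of genes moved more. For labelled deleted against control, 190 genes passed in the paired fit, against 0 with no replicate block (317 at an unadjusted p under 0.05), 23 when clone alone was a covariate, 78 when replicate number was added to it, 13 without the variance trend (1126 unadjusted), 388 with array weights and 0 with all probe sets tested (1834 unadjusted). It was 620 in the sets of replicate number 1 only and 443 in those of number 2 only, and 98 to 418 without 1 set. The count of members other than Prdx4 was 1, Prdx2, with array weights, and 0 to 1 without 1 set. Between clones in control arrays, 792 genes passed, against 1330 with the replicate number as a block, 1599 with array weights, 477 with all probe sets, 1241 in control arrays alone and 2049 for the mean over both treatments (added after seeing the data), and 352 to 461 without 1 control array, where the lone array of a clone is assumed to vary like the other groups. The members' count there was 0 with all probe sets and 0 to 1 without 1 control array. For the difference between the clones' changes, 2 genes passed, against 0 without the block (178 unadjusted), 0 without the variance trend (304) and 0 with all probe sets (776), 4 with array weights, 12 with arrays centred and 5 to 224 without 1 set. Why these counts differ was not tested. Testing all probe sets adjusts over more features and also refits the moderated spread, and leaving out a set uses fewer arrays.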

Other observations

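The Txnrd1 differences agreed closely across sets, with an SD of 0.0056 (n = 4 sets) around 0.03, yet the moderated SE was 0.04 because the fit borrows spread from genes of like level; the SD of the 4 sets was 0.15 for Prdx1, 0.14 for Prdx3 and 0.11 for Prdx2. In clone 2, Prdx1, Prdx3 and Txn1 were above 0 in the set of replicate 1 (0.16, 0.08 and 0.06) and below 0 in that of replicate 2 (-0.20, -0.25 and -0.04), whereas Srxn1 was at 0.00 and 0.10. Of the 3 members with an antioxidant response element match in a start window, Prdx1 (-0.01), Txnrd1 (0.03) and Srxn1 (0.07), none passed the test. Of the 2 members with a RUNX motif, Prdx3 was at -0.05 and Prdx2 at 0.14, which did not pass either (limma adjusted p = 1 and 0.235). With 0.953% of all genes passing, so few members cannot show whether either motif matters, and this was not tested.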
